A study of Mus musculus with 13 samples.

Results

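Gamma-secretase is a membrane protease built from a presenilin, nicastrin, an APH1 protein and PEN-2, and it cuts single-pass proteins within the membrane after their outer part has been shed. Its best known substrates are the Notch receptors, whose freed inner domain enters the nucleus and turns on genes of the Hes and Hey families. In muscle precursor cells, Notch signalling is known to hold back differentiation.

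The 9 genes described here are Aph1a, Aph1b, Psen2, Ncstn and Psenen, which encode subunits of the protease, the receptors Notch1, Notch2 and Notch3, and the Notch target Hey1. They are 9 of 55642 genes in the count table, all 9 passed the filter on low counts, and 16848 genes were tested. Aph1b was chosen by its fall after YBX3 siRNA in these same libraries, and the other subunits and the receptors were chosen for their family. How Hey1 was picked among the Notch targets is not stated, and a choice by its values cannot be set aside. The values of Aph1b and Hey1 are therefore given as a description with no test. The question for the rest was whether the paralogs, the other subunits or the Notch genes differed too.

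The cells were C2C12, a mouse myoblast line that grows as single cells and fuses into myotubes when the serum in its medium is changed. They were transfected with non-targeting siRNA (control KD) or with siRNA against Ybx3 (YBX3 KD), which encodes an RNA-binding cold shock protein, and polyadenylated RNA was sequenced from stranded libraries. At 0 day there were 4 control KD libraries (replicates A to D) and 4 YBX3 KD libraries (A to D), and cells of all groups were collected 48 h after transfection. At 1 day, after 24 h in medium with horse serum, there were 2 control KD libraries (C and D) and 3 YBX3 KD libraries (B to D). Total counts ran from 33451547 to 71811371 per library, with a median of 43993711. The labels call the replicates biological but do not say that they were separate cultures, so p-values measure the spread between these libraries, which may in part be technical. Values below are in CPM, the standard count scaled to a library size common to all libraries, with library sizes adjusted by the trimmed mean of M-values (TMM).

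The target gene followed the labels. Ybx3 stood between 265 and 347 CPM in the 6 control KD libraries, with a median of 313.7, and between 28.7 and 71.5 CPM in the 7 YBX3 KD libraries, with a median of 42.9. The YBX3 KD mean was 14.5% of the control KD mean.

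Of 8 markers of myoblasts, 7 passed the filter on low counts. Vim, Itga7, Chrna1 and Cdh15 had median levels of 4053, 402, 298 and 139 CPM, and Myf5 and Des of 53.2 and 20.3 CPM. Myod1 was low, at 0.601 to 3.32 CPM, and Pax7 did not exceed 0.179 CPM. With YBX3 KD over both days Chrna1 rose (log2 fold change 0.37, adjusted p = 0.0449 in edgeR, 0.0371 with the replicate block and 0.0033 with DESeq2, higher in 6 of 6 pairs). Myod1 had 1.11 (adjusted p = 0.0726, 0.0155 and 0.00776 in that order, higher in 6 of 6 pairs) and Vim −0.19 (adjusted p = 0.333, 0.0401 and 0.282, lower in 6 of 6 pairs). The part of these differences in the results below was not tested. Of the 7 markers of differentiating muscle, 6 were tested and 0 passed between 1 day and 0 day in either arm in edgeR, as no gene did. With YBX3 KD over both days 0 of the 6 passed in edgeR, with or without the block, or in DESeq2, and Mymk alone had an unadjusted p under 0.05 (1.26, adjusted p = 0.297, higher in 6 of 6 pairs). In the 1 day pairs, C and D, the YBX3 KD library was higher for Myog (2.99 and 3.07 on the log2 scale), Ckm (3.28 and 3.63), Acta1 (2.86 and 1.94) and Mymk (1.76 and 3.76), and lower for Tnnt2 (−0.21 and −1.80), while Myh3 went both ways (1.83 and −0.03). In the 0 day pairs each of these genes but Mymk went both ways, Myog from −1.81 to 0.96, and in YBX3 KD replicate B at 1 day, which has no pair, Myog had 0.176 CPM. Myog, the myogenic factor that is turned on as myoblasts leave the cell cycle, did not exceed 3.46 CPM in any library, and its highest value was in YBX3 KD replicate C at 1 day. How far the cells labelled 1 day had begun to differentiate cannot be told from these values, and every 1 day value and day step below takes that label as given. Of other cell types, Sox10 (Schwann cells) and Epcam (epithelium) had 0 counts in all 13 libraries, and Pecam1 and Kdr (endothelium), Ptprc (leukocytes), and Adipoq and Plin1 (adipocytes) did not exceed 0.112 CPM.

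Replicate D stood apart from the other letters in both arms and on both days. Its 4 libraries lay outside the range of the 9 libraries of replicates A to C for 4 of the 9 members, against 18.8% of all genes tested. Notch1 was lower in D, and Psen2, Psenen and Notch3 were higher. Among the 7 tested markers of myoblasts, Myf5 was lower and Des higher in D without overlap, and the summed level of the list was 4114 to 5032 CPM in D and 4400.3 to 5639 CPM in A to C, with Vim as its most abundant gene. The epithelial list, of which Krt8 is the most abundant and Epcam was at 0, summed to 3.78 to 7.002 CPM in D and 1.23 to 1.90 CPM in A to C. The differentiating muscle list, of which Tnnt2 is the most abundant, summed to 29.4 to 85.6 CPM in D and 72.3 to 112 CPM in A to C. In these bulk samples, fewer cells of a type and less RNA per cell cannot be told apart. The part of replicate D in the results below was not tested.

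The siRNAs are shown first because a guide strand can also act on transcripts that match its seed, bases 2 to 8. The study listed 4 siRNAs against mouse Ybx3, which it used as a pool or singly in different experiments, and whether the sequenced cells received the pool or a single siRNA is not given in the sources used here. Their guide strands read as follows, 5′ to 3′, with the seed in capitals.
YBX3 siRNA 5: uAUAGUUGuagggacgucg
YBX3 siRNA 6: aUAGUAGCcgcgucuguac
YBX3 siRNA 7: uCCAUAUCcauuucugacg
YBX3 siRNA 8: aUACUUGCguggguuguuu
All 4 guides had a fully paired site in the canonical Ybx3 transcript. For siRNA 7 the listed sense strand was not the complement of the listed guide and had no match in Ybx3, so only its guide is used here.

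The seed match of siRNA 8, GCAAGTA on the sense strand of the transcript, was found in the 3′ untranslated region (3′ UTR) of Aph1b and of its paralog Aph1c. In Aph1b it lies in exon 6 of 6, 350 bases into a 3′ UTR of 4011 bases. In Aph1c a match lies at the same distance, 350 bases into a 3′ UTR of 4545 bases, and another lies at base 2874. The bases that would face the whole guide are printed with the seed match in capitals, in GRCm39 and on the minus strand.
Aph1b, chr9:66686138-66686156: acttcagctgaGCAAGTAa
Aph1c, chr9:66726219-66726237: acttcagctgaGCAAGTAa
Aph1c, chr9:66723695-66723713: gggaggcagatGCAAGTAg
The first 2 sites were the same over all 19 bases. Of these 19 bases, 10 would pair with the guide of siRNA 8, and at the last site 9 would. GCAAGTA occurred in the 3′ UTR of 884 of 12933 tested protein-coding genes, 6.84%, and of 16.5% of the 1579 genes whose 3′ UTR was 80 to 125% as long as that of Aph1b. None of the 3′ UTRs of Aph1a, Psen2, Ncstn, Psenen, Notch1, Notch2, Notch3 or Hey1 held it, although the coding sequence of Notch2 held 2 matches and that of Notch3 held 1. For the other 3 siRNAs, the canonical 3′ UTRs of the 9 members and Aph1c held 0 matches. That of Notch4 held 1 for siRNA 5, a match found in 6.72% of the 3′ UTRs. Over any protein-coding transcript, Aph1b also held a match for siRNA 6 and for siRNA 7, as did 7.63% and 9.41% of the 12933 genes. Among canonical 3′ UTRs of like length to that of Aph1b, 11.5% and 12.4% held these matches. The matches of non-targeting siRNAs 2, 3 and 4 were common, in 24.9%, 29.5% and 31.8% of the 3′ UTRs. Aph1b and Aph1c held 1 match each for siRNA 2, Aph1b, Aph1a and Notch2 held 1 each for siRNA 3, and for siRNA 4 Ncstn, Notch1 and Notch4 held 1 each and Hey1 held 2. For siRNA 1, none of these genes held a match. A match is a description of letters, and whether it contributes to a level was not tested.

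Aph1b (ENSMUSG00000032375, chr9:66612630-66702811, minus strand) encodes an APH1 subunit, the scaffold on which the protease is assembled. In control KD at 0 day, replicates A to D had 26.8, 27.3, 27.1 and 27.3 CPM, and at 1 day replicates C and D had 28.3 and 25.2 CPM. In YBX3 KD at 0 day, A to D had 11.8, 11.05, 10.8 and 11.5 CPM, and at 1 day B to D had 10.8, 13.9 and 10.4 CPM. The arms did not overlap, which its choice by this fall had fixed, and the YBX3 KD mean was 42.4% of the control KD mean. The fitted log2 fold change was −1.24 over both days, −1.27 at 0 day and −1.19 at 1 day. Within the 6 pairs of libraries of the same day and letter, its difference ran from −1.33 to −1.02.

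**Figure D1:**
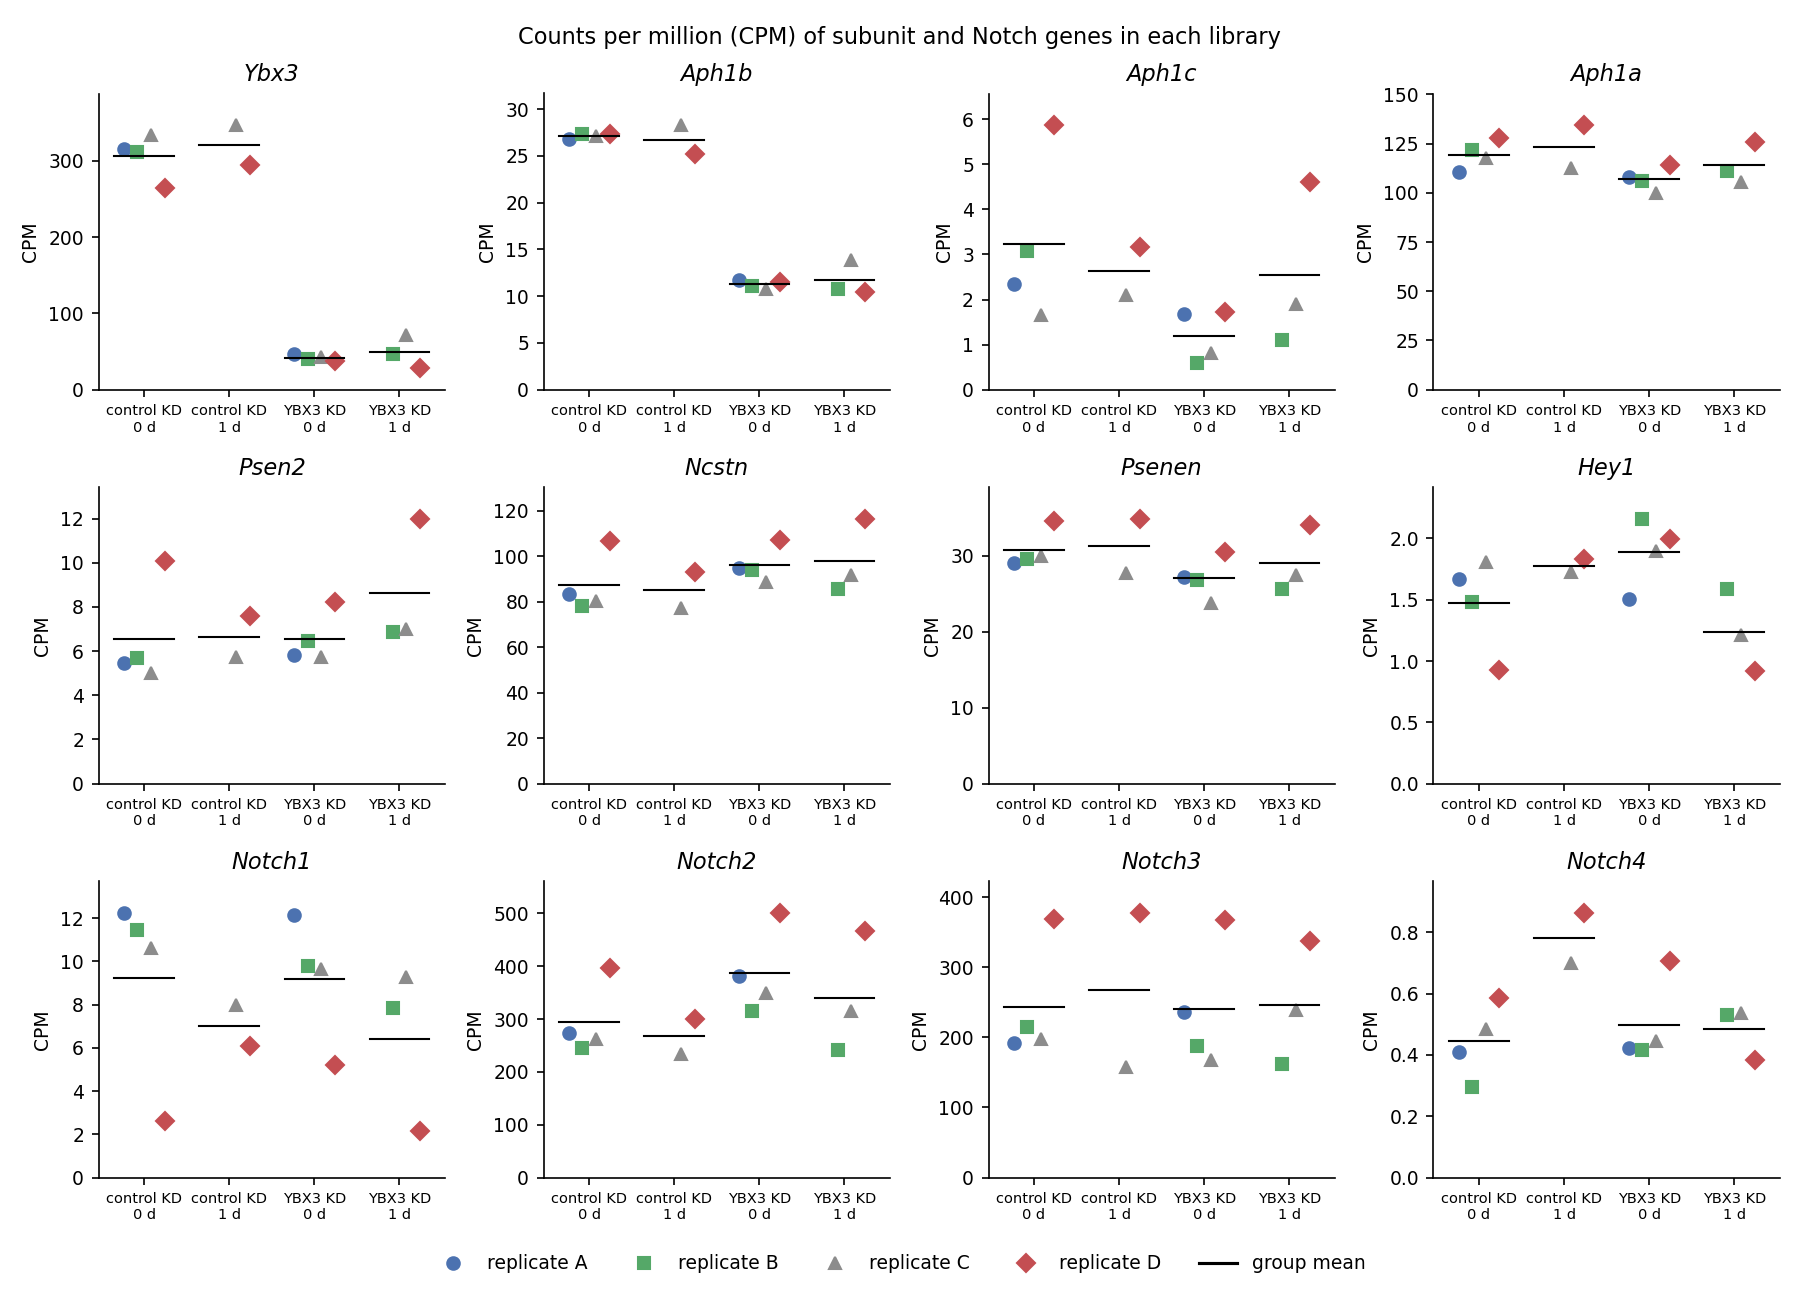
Level in CPM (y axis, linear from 0) of Ybx3, the 9 members, Aph1c and Notch4 in each of the 13 libraries, by arm and day (x axis), with marker shape and colour for the replicate letter and a black line for the group mean. Aph1b lies at 25.2 to 28.3 CPM in control KD and 10.4 to 13.9 CPM in YBX3 KD, and replicate D (red diamonds) lies apart for Notch1, Psen2, Psenen and Notch3.

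Aph1c (ENSMUSG00000053040, chr9:66722031-66742644, minus strand) is the rodent copy of Aph1b and lies next to it. It is outside the 9 members. In control KD it had 2.35, 3.07, 1.67 and 5.86 CPM in A to D at 0 day, and 2.09 and 3.16 CPM in C and D at 1 day. In YBX3 KD it had 1.67, 0.584, 0.804 and 1.72 CPM at 0 day, and 1.11, 1.91 and 4.61 CPM in B to D at 1 day. The lower values at 0 day in YBX3 KD did not carry to replicate D at 1 day, and the arms overlapped. Its log2 fold change over both days was −0.93 (95% interval −1.91 to 0.05), with an adjusted p of 0.346 (edgeR, quasi-likelihood, adjusted by Benjamini-Hochberg over all 16848 genes), and without replicate D it was −0.999 (adjusted p = 0.0863). Over all alternatives the adjusted p ran from 0.0309, with DESeq2 and the replicate block, to 0.526. At 0 day alone it was −1.44 (−2.59 to −0.28, adjusted p = 0.318) and at 1 day −0.05 (−1.50 to 1.40), and the difference between the days did not pass (1.39, −0.49 to 3.26). It was lower in 5 of 6 pairs. The coding sequences of Aph1b and Aph1c were 96.25% identical, and 566 of 4865 windows of 85 bases (about the read length) along the Aph1b transcript, 11.6%, were found unchanged in Aph1c. Counts of this pair are thus uncertain where the counting could split reads between them. Aph1a shared 0 such windows with either and 61.11% of aligned coding bases with Aph1b.

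Aph1a (ENSMUSG00000015750, chr3:95801233-95805901, plus strand), the other APH1 subunit gene, was the most abundant of the family. Length-scaled levels, in which each count is divided by the length of the canonical transcript and scaled to the same total (TPM), allow genes to be compared. On this scale Aph1a had 164.4 ± 14.8 TPM (SD, n = 6) in control KD, Aph1b 13.1 ± 0.343 and Aph1c 1.33 ± 0.62, and the 3 did not overlap in any library. Aph1b therefore held 7.35% ± 0.699 of the APH1 transcripts in control KD and 3.57% ± 0.493 (n = 7) in YBX3 KD, and Aph1a 91.9% ± 0.638 and 95.95% ± 0.460. By the length of the longest transcript in place of the canonical one, Aph1b held 11.03% and 5.48%. The shares follow from the fall that chose Aph1b and are not a test. In CPM, Aph1a had 110 to 134 in control KD, with a median of 119.8, and 99.8 to 126 in YBX3 KD, with a median of 108.0, so that the arms overlapped. It was lower in 6 of 6 pairs, by 0.03 to 0.24 on the log2 scale. Its log2 fold change was −0.14 (95% interval −0.28 to −0.00051), with an adjusted p of 0.317, and over all alternatives the adjusted p ran from 0.0062 to 0.521. No alternative gave a higher level of Aph1a in YBX3 KD.

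**Figure D2:**
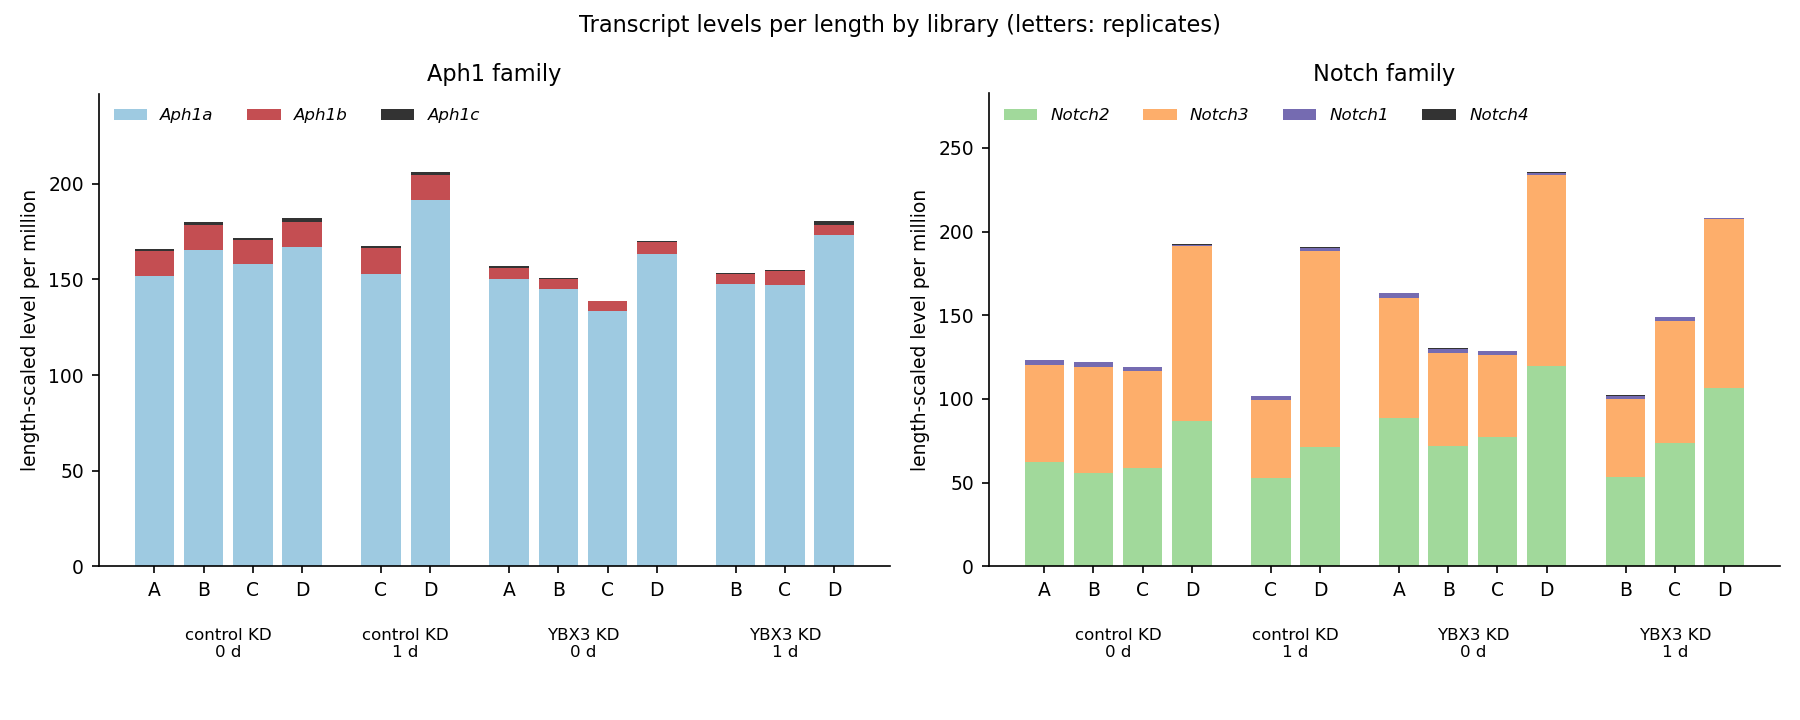
Length-scaled levels in TPM (y axis, stacked bars from 0) of the APH1 genes (left) and the Notch receptor genes (right) in each library, with replicate letters under the bars and groups below. Aph1a makes up 91.3 to 96.4% of the APH1 total, and Notch2 with Notch3 makes up nearly all of the Notch total, which is highest in replicate D.

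Of the 7 members other than Aph1b and Hey1, 0 passed at an adjusted p under 0.05 between YBX3 KD and control KD over both days, against 2.34% of all genes tested (394 genes, 218 higher and 176 lower). The test was the quasi-likelihood test of edgeR, adjusted by Benjamini-Hochberg. DESeq2 also passed 0 of these 7, and 2 of them, Aph1a and Notch2, had an unadjusted p under 0.05 in edgeR. Libraries of the same letter deviated together, and with the letter as a block in the fit 2 of the 7 passed, Notch2 and Ncstn, against 9.78% of all genes tested. The arms overlapped for all 7, where 2.03% of all genes tested had arms that did not overlap. Of the 7, 4 differed the same way in all 6 pairs (Notch2 and Ncstn higher, Aph1a and Psenen lower), against 17.3% of all genes tested.

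Ncstn (ENSMUSG00000003458, chr1:171893580-171910369, minus strand) encodes nicastrin, the large glycoprotein subunit that gates access of substrates. It had 83.2, 78.3, 80.3 and 107 CPM in control KD A to D at 0 day, and 77.3 and 93.0 CPM in C and D at 1 day. In YBX3 KD it had 95.01, 93.9, 88.6 and 107 CPM at 0 day, and 85.5, 91.9 and 116 CPM in B to D at 1 day. The arms overlapped, with replicate D the highest of each group. The log2 fold change was 0.16 (95% interval −0.05 to 0.38), with an adjusted p of 0.457. With the replicate block it was 0.19 (0.08 to 0.30), with an adjusted p of 0.0377, and without all 4 libraries of replicate D it was 0.20, with an adjusted p of 0.0204 in edgeR. Over all alternatives its adjusted p ran from 0.00411 to 0.694.

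Psenen (ENSMUSG00000036835, chr7:30261080-30263562, minus strand) encodes PEN-2, the small subunit that allows presenilin to mature. It had 27.8 to 34.8 CPM in control KD, with a median of 29.8, and 23.8 to 34.1 CPM in YBX3 KD, with a median of 27.2, so that the arms overlapped. Its log2 fold change was −0.15 (95% interval −0.35 to 0.04, adjusted p = 0.449), and with the replicate block −0.14 (adjusted p = 0.109).

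Psen2 (ENSMUSG00000010609, chr1:180054569-180091003, minus strand) encodes a presenilin, the catalytic subunit. It had 5.01 to 10.1 CPM in control KD, with a median of 5.71, and 5.71 to 11.98 CPM in YBX3 KD, with a median of 6.88. Replicate D had the highest value in every group. The log2 fold change was 0.14 (95% interval −0.30 to 0.58, adjusted p = 0.784), an interval that spans both directions. Without replicate D it was 0.19 (adjusted p = 0.194), and over all alternatives it ran from 0.02 to 0.32 with adjusted p from 0.194 to 0.964. On the level scaled by canonical length, Aph1a came first in control KD (n = 6). Psenen at 72.8 ± 7.72 and Ncstn at 71.3 ± 9.06 followed and did not differ beyond their spread. Then came Aph1b at 13.1 and Psen2 at 7.88 ± 2.20 (SD). The longest Ncstn transcript has 4048 bases against 2901 for the canonical one, and Psenen has 1019 for both. Scaled by the longest transcript, Ncstn would thus stand lower beside Psenen.

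**Figure D3:**
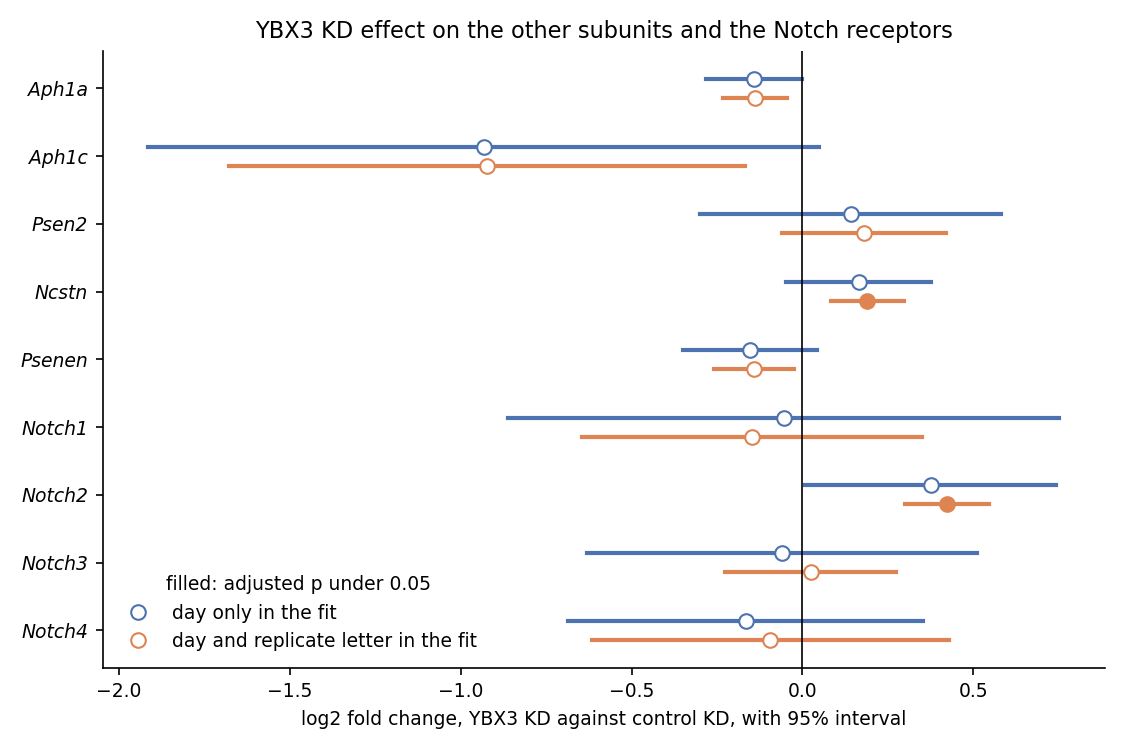
Log2 fold change of YBX3 KD against control KD over both days (x axis) with its 95% interval for 7 members, Aph1c and Notch4 (y axis), from the fit with the day alone (blue) and from the fit with day and replicate letter (orange), with filled points at an adjusted p under 0.05. Intervals are shorter with the block for all genes shown but Notch4, and Ncstn and Notch2 are the filled points.

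Notch2 (ENSMUSG00000027878, chr3:97920800-98057677, plus strand) encodes a Notch receptor. In control KD it had 273, 246, 263 and 398 CPM in A to D at 0 day, and 235 and 300.5 CPM in C and D at 1 day. In YBX3 KD it had 382, 315, 348 and 501 CPM at 0 day, and 241, 315 and 466 CPM in B to D at 1 day. Replicate D was high in both arms and the arms overlapped, but within each of the 6 pairs the YBX3 KD library was higher, by 0.33 to 0.63 on the log2 scale. The log2 fold change was 0.37 (95% interval 0.01 to 0.74), with an adjusted p of 0.306. With the replicate block it was 0.42 (0.30 to 0.54), with an adjusted p of 0.00319, and without replicate D it was 0.36, with an adjusted p of 0.0246 in edgeR. Over all alternatives the adjusted p ran from 1.73e-10 to 0.496. At 0 day alone, where 0.427% of all genes passed, 0 of the 7 members passed without the block, and with it Notch2 alone passed, where 2.37% of all genes did (log2 fold change 0.39, adjusted p = 0.0248). At 1 day alone, where 0.0712% of all genes passed, 0 of the 7 passed, and with the block the share of all genes was again 0.0712% and 0 of the 7 passed. On either day, 0 of the 7 had an unadjusted p under 0.05 in edgeR without the block, and DESeq2 passed 0.

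Notch3 (ENSMUSG00000038146, chr17:32339794-32385893, minus strand), a receptor known from vascular smooth muscle and muscle precursors, had 192, 215, 198 and 368 CPM in control KD A to D at 0 day, and 158 and 377 CPM in C and D at 1 day. In YBX3 KD it had 237, 188, 168 and 367 CPM at 0 day, and 161, 239 and 337 CPM in B to D at 1 day. Replicate D had 362.2 ± 17.6 CPM (SD, n = 4) and A to C 195 ± 30.5 CPM (n = 9), and these ranges did not overlap, while the arms did. The log2 fold change with YBX3 KD was −0.06 (95% interval −0.63 to 0.51, adjusted p = 0.937), and its sign turned to 0.02 with the replicate block.

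Notch1 (ENSMUSG00000026923, chr2:26347915-26406675, minus strand), the receptor most studied in development, ran opposite to Notch3 across replicates. It had 12.2, 11.5, 10.6 and 2.62 CPM in control KD A to D at 0 day, and 7.99 and 6.06 CPM in C and D at 1 day. In YBX3 KD it had 12.1, 9.79, 9.62 and 5.19 CPM at 0 day, and 7.84, 9.26 and 2.15 CPM in B to D at 1 day. Replicate D had 4.01 ± 1.91 CPM (n = 4), 39.7% of the mean of A to C, and the arms overlapped. The log2 fold change was −0.05 (95% interval −0.86 to 0.75, adjusted p = 0.962), and it changed sign when any 1 of 5 libraries was left out. Notch4, outside the members, did not exceed 0.862 CPM.

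On the length-scaled level Notch3 and Notch2 had 74.5 ± 29.0 and 64.7 ± 12.5 TPM in control KD (SD, n = 6), which did not differ beyond their spread, and Notch1 had 2.15 ± 0.930. Notch2 held 46.7% ± 5.30 of the Notch receptor transcripts in control KD and 53.3% ± 3.63 in YBX3 KD, and Notch3 held 51.5% ± 5.93 and 45.2% ± 4.02. The ranges of these shares overlapped between the arms.

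**Figure D4:**
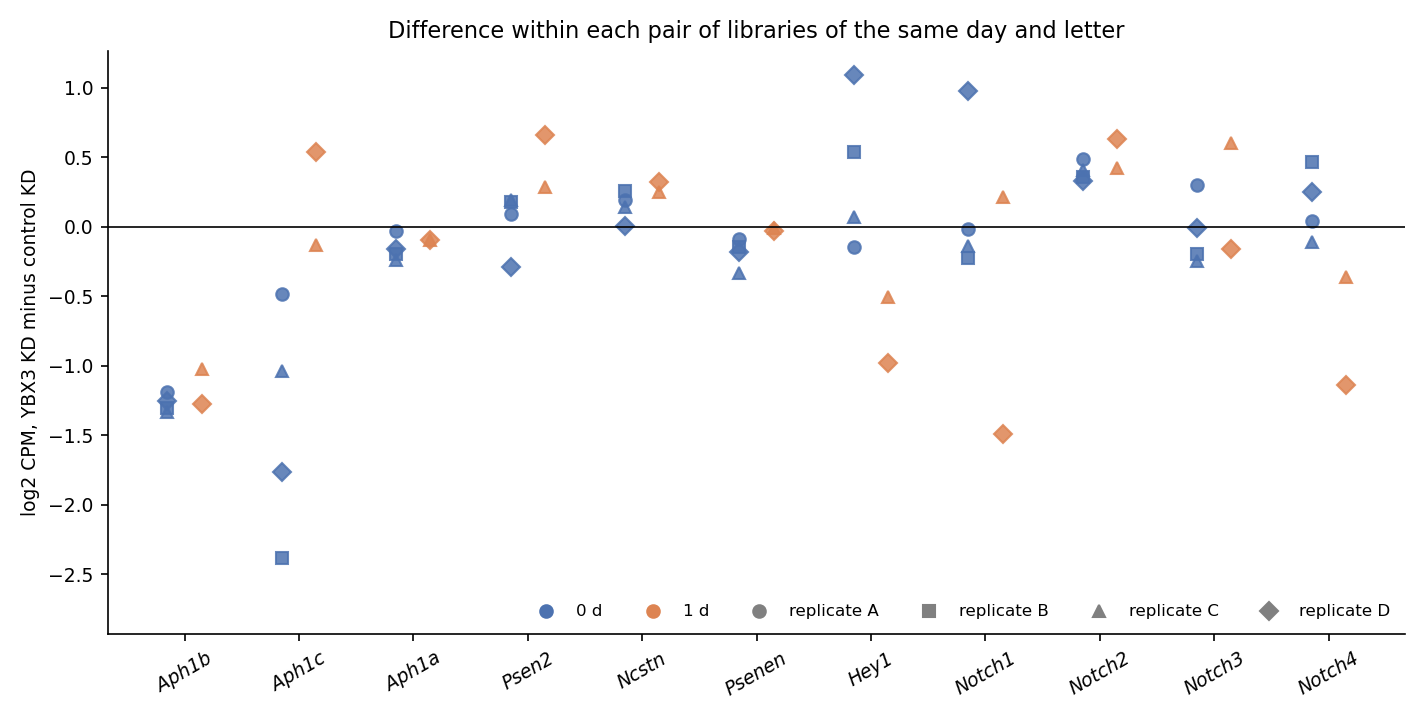
Difference in log2 CPM of YBX3 KD minus control KD (y axis) within each of the 6 pairs of libraries of the same day and replicate letter, for the 9 members, Aph1c and Notch4 (x axis), blue for 0 day and orange for 1 day. Aph1b lies between −1.33 and −1.02 in all pairs and Notch2 between 0.33 and 0.63, while Notch1 spreads from −1.49 to 0.98.

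Hey1 (ENSMUSG00000040289, chr3:8726956-8732385, minus strand) encodes a repressor that Notch signalling turns on. Its counts were low, 30 to 155 per library. It had 1.67, 1.48, 1.81 and 0.926 CPM in control KD A to D at 0 day, and 1.73 and 1.83 CPM in C and D at 1 day. In YBX3 KD it had 1.504, 2.16, 1.90 and 2.00 CPM at 0 day, and 1.59, 1.21 and 0.921 CPM in B to D at 1 day. The YBX3 KD mean was 128% of the control KD mean at 0 day and 69.7% at 1 day. The difference of its YBX3 KD effect between the days was −0.87 on the log2 scale, given with no test. For the members tested, the YBX3 KD effect did not pass as different between the days for any (0 of 7, against 0% of all genes, with 444 genes at an unadjusted p under 0.05 in edgeR and 2 genes by DESeq2).

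The step from 0 day to 1 day was tested within each arm for the same 7 members. In control KD, 0 of the 7 passed, against 0% of all genes tested by edgeR (242 at an unadjusted p under 0.05, 6 by DESeq2), and in YBX3 KD also 0 of 7, against 0% (721 and 4). In either arm 0 of the 7 had an unadjusted p under 0.05 in edgeR, and DESeq2 passed 0. In control KD the log2 fold changes ran from −0.40 for Notch1 (95% interval −1.73 to 0.94) to 0.14 for Notch3 (−0.79 to 1.06), and in YBX3 KD from −0.52 for Notch1 (−1.69 to 0.66) to 0.39 for Psen2 (−0.21 to 1.00). As a description, Aph1b had −0.02 and 0.06, and Hey1 0.27 and −0.60. Notch2 had −0.14 (−0.74 to 0.46) in control KD and −0.18 (−0.71 to 0.35) in YBX3 KD, and with the replicate block −0.30 (−0.50 to −0.09, adjusted p = 0.649) and −0.22 (−0.40 to −0.05, adjusted p = 0.661). Over all alternatives the adjusted p of these Notch2 steps ran from 0.649 to 1 and from 0.507 to 1.

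Beyond the members, 79 genes in 10 lists of the pathway were followed, of which 68 were tested. The lists were chosen with earlier results of these data known. Their shares and the p-values of their genes are therefore not independent of those results. After YBX3 KD over both days 4 were past the threshold as higher and 1 as lower, 7.35% of those tested beside 2.34% of all genes. Among these, Slc2a13 was already named by the study from these libraries. Without it, 3 of the other 67 were higher and 1 lower, 5.97%, and with the replicate block the counts were again 3 and 1, 5.97%, but beside 9.78% of all genes. DESeq2 passed 7 of the 67 over both days, 10.4% beside 7% of all genes. At 0 day alone 2 of the 67 were higher, Fbxw7 and Cdh2, 2.99% beside 0.427% of all genes, and with the block 3, 4.48% beside 2.37%. DESeq2 passed 4 of the 67 at 0 day, where it called 254 genes higher and 267 lower among all 16848. At 1 day alone 0 of the 67 passed in edgeR, with or without the block, 7 had an unadjusted p under 0.05 without it, and DESeq2 passed 0. For the difference between the days 0 of the 67 passed in edgeR (2 at an unadjusted p under 0.05) and 0 in DESeq2. The median log2 fold change of the 67 over both days was 0.05 beside 0.00 over all genes.

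Slc2a13, of the 5 genes of proteins that associate with gamma-secretase, is a myo-inositol transporter. Because it was already named from these libraries, it is described with no test. Its level was 2.48 to 3.08 CPM in the 6 control KD libraries and 3.30 to 5.95 CPM in the 7 YBX3 KD libraries, with pair differences of 0.91 to 1.09 at 0 day and of 0.50 and 0.67 at 1 day on the log2 scale. The 2 most abundant genes of this list per length, Bsg and Tmed10, had −0.04 and −0.02, and neither passed. Of trafficking and turnover genes, 2 of 11 rose. Fbxw7, a ubiquitin ligase subunit that marks the cut Notch domain for decay, went from 24.5 ± 2.06 to 32.4 ± 1.74 CPM (0.40, SE 0.0663, adjusted p = 0.00952, higher in 6 of 6 pairs, no overlap). Neurl1a, a ligase acting on Notch ligands, went from 16.6 ± 3.13 to 25.5 ± 3.46 CPM (0.64, SE 0.117, adjusted p = 0.0136, higher in 6 of 6 pairs). Dtx3 and Numbl, the most abundant of this list per length, had 0.18 and −0.05 and did not pass.

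Of the 17 other substrates tested, 1 rose and 1 fell. Cdh2, the gene of N-cadherin, went from 151 ± 9.61 to 211 ± 24.4 CPM (log2 fold change 0.49, SE 0.0688, adjusted p = 0.0040, higher in 6 of 6 pairs, no overlap). Efnb1, an ephrin gene, went from 21.8 ± 4.37 to 15.7 ± 1.03 CPM (−0.48, SE 0.110, adjusted p = 0.0404, lower in 6 of 6 pairs), and it missed the threshold under 11 of 22 alternatives, over which the adjusted p ran from 0.000291 to 0.0964. Lrp1, the most abundant of this list per length, had 0.09 (−0.08 to 0.27) and did not pass.

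Outside the 9 members, no gene of the other lists passed in edgeR. Of 5 sheddases and furin genes, Furin had 0.15 (95% interval −0.15 to 0.46) and Adam10 −0.01 (−0.11 to 0.09). Of 5 tested ligands, Jag2 had −0.03 (−0.38 to 0.32) and Dlk2 0.55 (−0.10 to 1.203). Among 6 glycosylation genes, which decorate the receptors, Rfng had 0.04 and Poglut2 −0.07. Among 12 genes of the nuclear complex that carries the Notch signal, Snw1 had −0.03 and Hdac1 −0.11. Of 6 tested targets, Hey1 included, Hes1 had −0.10 (−0.53 to 0.33) and Heyl −0.37 (−1.11 to 0.38), and Hey1 apart the median of the other 5 was −0.37 over both days, −0.07 at 0 day and −0.87 at 1 day, beside 0.00, −0.00 and 0.02 over all genes. These 5 went both ways, from −0.75 to 0.53 over both days, −0.67 to 0.63 at 0 day and −1.44 to 0.35 at 1 day. The difference of their YBX3 KD effect between the days was negative for all 5 (−1.19 to −0.16, median −0.27, beside −0.00 over all genes). It passed for none in edgeR or DESeq2, with 0 at an unadjusted p under 0.05 in edgeR. Within letters the sign was not shared. In replicate C the pair difference was higher at 1 day for Hes1 (−0.35 to 0.04), Heyl (−0.34 to 0.11) and Hes7 (−1.20 to −1.12). It was lower there for Hey2 and Nrarp. In replicate D it was higher for Hey2 (0.39 to 1.07). It was lower in D for Hes1 (0.40 to −1.02), Heyl (1.16 to −1.65), Hes7 and Nrarp. Hes7, Hey2 and Nrarp had counts of only 4 to 17, 3 to 31 and 3 to 33 per library. From 0 day to 1 day 0 of the 67 genes passed in edgeR in either arm, with 1 at an unadjusted p under 0.05 in control KD and 8 in YBX3 KD, and DESeq2 passed 0 in either arm.

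**Figure D5:**
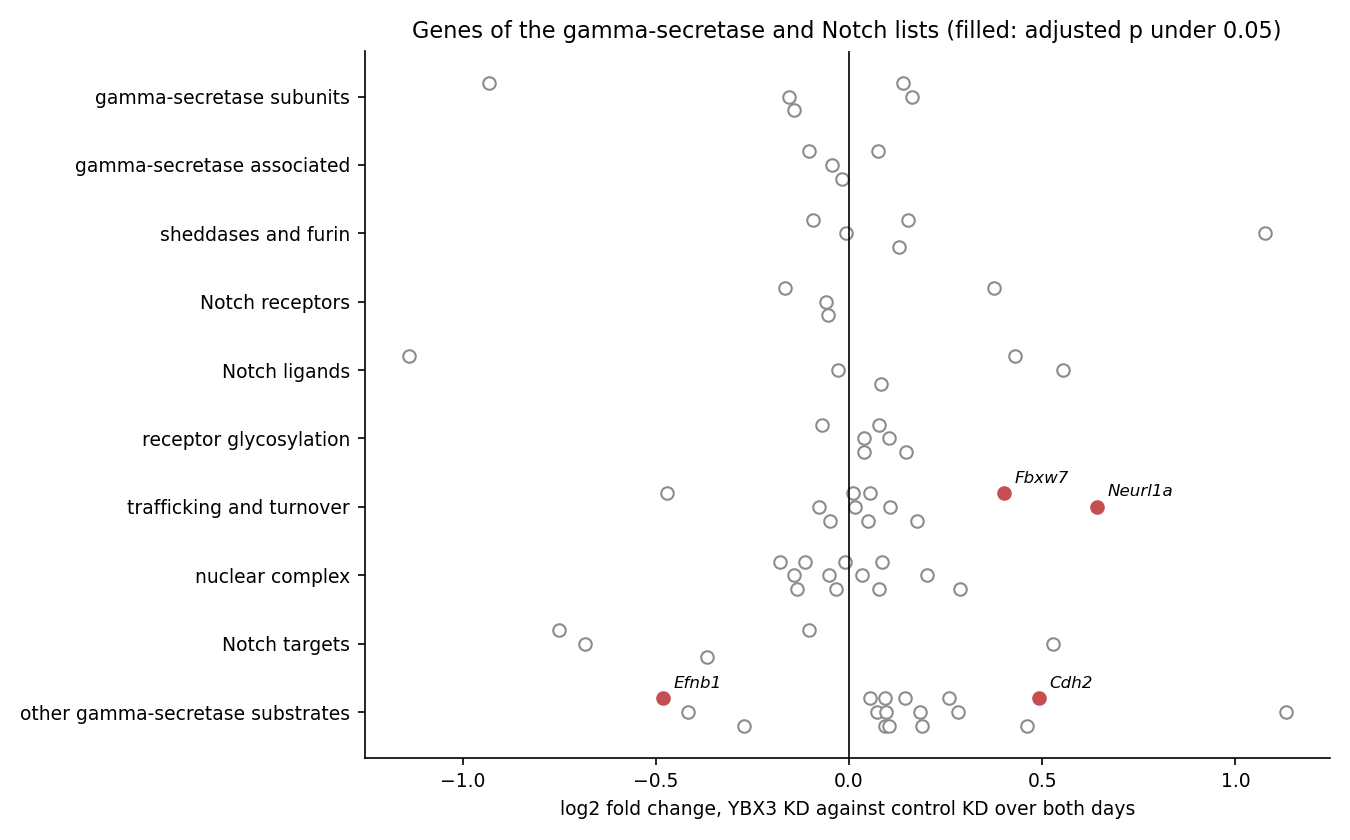
Log2 fold change of YBX3 KD against control KD over both days (x axis) of each tested gene of the 10 lists (y axis), without Aph1b, Hey1 and Slc2a13, with filled red points at an adjusted p under 0.05. The 4 named points are Fbxw7 at 0.40, Neurl1a at 0.64, Cdh2 at 0.49 and Efnb1 at −0.48.

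The genes with a pattern most like Aph1b over the 13 libraries, by Pearson r of log2 CPM, were Ybx3 (0.99), Purb (0.99), Foxk2 (0.98), Dcun1d4 (0.98) and Cpne3 (0.98). These libraries share the arms, so r includes the fall that chose Aph1b. Among the other members r was highest for Aph1a (0.50), and 1642 genes had a higher r. With group means removed, the genes most like Aph1b were P4ha3 (0.95), Neb (0.92), Myom1 (0.90), Ttll11 (0.89) and Ephb2 (0.89). On that measure Aph1b had between −0.47 (Aph1a) and 0.38 (Notch1) with the other members. Ncstn had 0.95 with Notch2, 0.96 with Psen2 and −0.92 with Notch1. Hey1 had 0.69 with Notch1 and was negative with the rest, from −0.72 with Notch2 to −0.06 with Aph1b. The points of this measure share the replicate letters, with D apart from the others, and no p is given.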

How the data were processed

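Polyadenylated RNA of 13 C2C12 libraries was sequenced. The authors ran Salmon on GRCm39 with GENCODE M30, and the values they deposited are estimated counts per gene (expected counts), given as whole numbers. Here GENCODE vM39 gave symbols, positions and transcript lengths. Total counts were 33451547 to 71811371 per library. Genes with low counts were removed with filterByExpr over the 4 groups, which left 16848 genes. TMM scaling and edgeR 4.0.16 (quasi-likelihood F-test, R 4.3.3) with Benjamini-Hochberg adjustment over all genes tested were used, and a gene passed at an adjusted p under 0.05. YBX3 KD over both days had the day as a term over all 13 libraries, and other contrasts came from 1 coefficient per group. DESeq2 1.42.0 was an alternative, beside no filter, other scaling, a replicate block, only replicates A to C, the thresholds of the study and leaving out each library. The thresholds of the study, a fold change over 1.3 and an adjusted p under 0.001, were put on the edgeR fit. The study itself used them with DESeq2 and another adjustment of p, so its own calls were not remade here. Coding sequences were aligned with Biopython 1.88, and protein identity was not computed. The procedure was tested on simulated data.

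Of pairs of libraries from different groups, all 16 with the same letter had residuals with r over 0.1 (median 0.338), against 11 of 46 with different letters (median −0.146) and 8 of 16 with the same title number. Letters were therefore used as the replicate block. No 2 libraries of a group were duplicates by a chi-square comparison.

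The members and lists were chosen with earlier results of these data known. Named beside the members were Ybx3, Aph1c, Notch4, genes of each list that passed in YBX3 KD over both days or in the day step of either arm (up to 4 in each direction) and, where fewer than 2 passed in any of these 3 contrasts, as for the day steps of every list, the 2 most abundant per length, and the 5 genes most like Aph1b. A further gene is not reported here and is in no count, and in the list of other substrates only 1 of the 2 most abundant genes is named.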

Additional observations from a re-analysis of the deposited data

Results flagged for a closer look

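In control KD at 0 day, replicate D stood far from replicates A to C for 4 genes, by the gap to its nearest neighbour relative to the range of the group. Psen2 was at 10.06 CPM, Psenen at 34.63 CPM and Notch3 at 368.1 CPM, each above the other 3 libraries, and Notch1 was at 2.624 CPM, below them. In all, 20 groups of 4 libraries or more were checked in this way, and chance gives about 1 in 20. The 4 come from a single library, so they are not independent of each other. Why this library differs was not tested.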

How the results depend on the processing

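For YBX3 KD over both days, 394 genes passed, against 1179 with DESeq2, 180 with no filter, 1647 with the replicate block, 2155 with only replicates A to C, 19 with the thresholds of the study, and 172 to 857 when 1 library was left out. Here and below, the thresholds of the study are put on the edgeR fit and not on DESeq2, which the study used. The count moved by over 1.5 times without control KD 0 day replicates A (207), B (190), C (172) or D (857), control KD 1 day C (218) or D (200), or YBX3 KD 0 day A (177), B (219) or C (186). Alternatives chosen after seeing the data gave 2961 (DESeq2 with the block), 2052 (block with only A to C) and 23 (block with the thresholds of the study). At 0 day the count of 72 became 521 with DESeq2, 37 with no filter, 399 with the block, 43 with a block by title number, 948 with only A to C, 5 with the thresholds of the study and 20 to 95 with 1 library left out. At 1 day the count of 12 became 144 with DESeq2, 2 with no filter, 0 with the block by title number, 21 with only A to C, 0 with the thresholds of the study and 0 to 15 with 1 library left out. The difference between the days gave 2 with DESeq2, 2 with only A to C, and 0 to 1 with 1 library left out. The day step gave 6 and 4 in control KD with DESeq2 and with only A to C. In YBX3 KD it gave 4 and 40, and 0 to 1 with 1 library left out. DESeq2 with the block, chosen after seeing the data, gave 625 higher and 723 lower genes at 0 day, 850 and 1517 at 1 day, 14 and 7 for the difference between the days, 3 and 17 for the day step in control KD and 4 and 17 in YBX3 KD. The cause of these shifts was not tested.

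Of the 7 members tested, the count of 0 became 2 with the replicate block, where 9.78% of all genes passed, 2 with only A to C (12.5%), 3 with DESeq2 and the block (Aph1a, Ncstn and Notch2; 17.6%), and 2 with the block and only A to C (11.9%). The block changed the call of no other member. The 5 other pathway genes (without Slc2a13 4, 5.97% of those tested beside 2.34% of all genes) became 8 with DESeq2 (without it 7, 10.4% beside 7%), 9 with only A to C (8, 12.1% beside 12.5%), 15 with DESeq2 and the block (14, 20.9% beside 17.6%), and 9 with the block and only A to C (8, 12.1% beside 11.9%). With the thresholds of the study on the edgeR fit the count was 0. The study itself, with DESeq2, reported Slc2a13 as higher.

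Of 681 alternative log2 fold changes, 603 kept direction and side of the threshold, 10 came to pass, 11 no longer passed (all Efnb1) and 57 changed sign, none of them past the test as reported. With YBX3 KD, Notch1 became 0.070 with the block by title number and ran from −0.24 to 0.087 with 1 library left out, turning positive without control KD 0 day A or B, control KD 1 day C, or YBX3 KD D at 0 or 1 day. Notch3 became 0.024 with the replicate block, 0.078 with only A to C, 0.017 with DESeq2 and the block, 0.075 with the block and only A to C, and −0.23 to 0.15 with 1 library left out, turning positive without control KD D at 0 or 1 day, YBX3 KD 0 day C or YBX3 KD 1 day B. Hey1 ran from −0.10 to 0.13, turning negative without control KD 0 day B or D, YBX3 KD 0 day B, C or D, or YBX3 KD 1 day B.

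The day step in control KD reversed with the replicate block for Psen2 (−0.086), Psenen (−0.038), Notch1 (0.24) and Notch3 (−0.15), with only A to C for Aph1a (−0.060), Aph1b (0.054), Psenen (−0.098) and Notch3 (−0.37), with only C and D for Psen2 (−0.18), Psenen (−0.050), Notch1 (0.075) and Notch3 (−0.090), and with the block by title number for Ncstn (0.083) and Notch2 (0.11). With 1 library left out, Aph1a ran from −0.083 to 0.16, Aph1b from −0.12 to 0.062, Psen2 from −0.19 to 0.29, Ncstn from −0.17 to 0.082, Psenen from −0.15 to 0.17, Notch2 from −0.33 to 0.028 and Notch3 from −0.62 to 0.62. In YBX3 KD the day step of Ncstn was −0.062 with only A to C and −0.12 to 0.12 with 1 library left out, as were −0.083 to 0.13 for Aph1b, −0.030 to 0.19 for Psenen, −0.48 to 0.019 for Notch2 and −0.26 to 0.32 for Notch3. Without a control KD library at 1 day, the lone one left is assumed to vary like the other groups.

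By the longest transcript, Aph1b held 11.03% of the APH1 total in control KD and 5.48% in YBX3 KD. Over any protein-coding transcript, siRNA 6 and siRNA 7 each gained 1 gene with a seed match, Aph1b, where 7.63% and 9.41% of tested protein-coding genes held these matches. Low counts limit Hey1, Hey2, Hes7, Nrarp, Notch4 and Aph1c, and 2 control KD libraries limit 1 day.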
